A study of Mus musculus with 64 samples.

Results

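The insulin-like growth factor (IGF) axis was followed in the liver and the liver tumours of mice treated with mTOR pathway inhibitors. Its members were the array features whose annotated symbol is Igf1, Igf2, Igfals, Igfbp1, Igfbp2, Igfbp3, Igfbp4, Igf1r, Igf2r or Ghr. There were 14 such features for 10 genes, out of 25697 features for 16593 genes. Of the 10 genes, 9 exceeded the noise and were tested, among 10495 genes tested in all. The exception was Igf1r, the receptor through which both growth factors signal, whose single probe exceeded the noise on 5 of 64 arrays, so no level is given for it.

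IGF1 is a growth factor that the liver releases into the circulation. Pituitary growth hormone binds its receptor, GHR, on hepatocytes and, through JAK2 and STAT5, turns on Igf1 and Igfals. IGF1 and IGF2 travel in blood bound to IGFBP3 and to the acid-labile subunit encoded by Igfals, or to smaller binding proteins such as IGFBP1, IGFBP2 and IGFBP4. Insulin lowers Igfbp1 transcription through PI3K, AKT and FOXO1. The receptor encoded by Igf2r takes up IGF2 and sends it to lysosomes, and it also sorts lysosomal enzymes that carry mannose 6-phosphate.

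RNA came from male C57BL/6 mice that had all been given the carcinogen diethylnitrosamine, 50 mg/kg, at 2 weeks of age, placebo controls included, so no liver here is that of an untreated mouse. Treatment by gavage, 2 doses per day for 28 days, began at about 44 weeks of age, and the mice were killed at 48 weeks, having fasted for 3 h. BEZ235 (30 mg/kg) inhibits PI3K and mTOR kinase. RAD001 (everolimus, 10 mg/kg) inhibits the mTORC1 complex. The combination used 18 mg/kg of BEZ235 with 2.5 mg/kg of RAD001, so its doses differ from those of the single agents and no comparison at matched dose is possible. BEZ235 was last given 1 h before sacrifice and RAD001 at the start of the fast. Livers came from 7 placebo, 6 BEZ235, 7 RAD001 and 7 combination mice. Tumours numbered 10 from 6 placebo mice, 10 from 6 BEZ235 mice, 10 from 6 RAD001 mice and 7 from 4 combination mice. The tumours of a mouse arose in the same liver and were averaged, so the animal is the replicate and a tumour value is this mean unless single tumours are named, and 18 of the 31 mice gave both tissues.

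All values are log2 intensities of a probe, and all differences are log2 differences with a standard error (SE) and a Benjamini-Hochberg adjusted p from limma over the 10495 genes, called at 0.05. The precision is limited by the number of animals. Levels of different probes are not compared with each other. The 5 hepatocyte marker genes tested had a summed level of 16.25 to 16.35 (median 16.31) in placebo livers. Their summed level was 15.90 to 16.35 (median 16.12) in placebo tumours. Among them Cps1 was lower in placebo tumour (-1.25) and Alb higher (0.79), with a dim Alb probe at 6.56 ± 0.44 (SD, n = 7) in placebo liver. In placebo tumours all 5 Kupffer cell markers tested were lower, with a summed level of 7.94 to 10.15 against 10.51 to 11.91 in placebo livers, and a further Kupffer marker, Cd5l, was not above noise. Of the 7 stellate cell markers, 2 were higher and 2 lower there. In tissue samples such as these, fewer cells of a type and less RNA per cell cannot be told apart, and the part of cell mixture in the results was not tested.

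Some treated tumours lay toward liver across the array. A liver-to-tumour score was computed from 577 genes raised and 495 lowered in placebo tumours, IGF axis genes left out, with placebo liver at 0 and placebo tumour at 1. Placebo tumours, which chose these genes, scored 0.874 to 1.11. The BEZ235 tumours of animals 693 and 759 scored 0.302 and 0.679, the RAD001 tumours of animals 732 and 730 scored 0.460 and 0.575, and the combination tumour of animal 773 scored 0.390. Other treated tumours also scored below all placebo tumours. The RAD001 tumour of animal 763 scored 0.708, and no combination tumour scored above 0.870. The liver of combination animal 742 scored 0.281, above the other combination livers, at 0.0160 to 0.0820. Values without animals 693, 759, 732, 730, 773 and 742 are given beside many of the differences between groups. These 6 were chosen after seeing the data, by a score of tumour against liver from the same arrays. Leaving them out therefore favours wider differences between tumour and liver, and the values without them are descriptions. The animals kept still include treated tumours that scored below all placebo tumours. Differences printed alone may have moved as well.

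The first question was how the axis differs between tumour and liver when no inhibitor is given. Only 4 placebo mice gave both tissues. Placebo tumours held far less Igf1 and Igfals RNA, less Ghr RNA, more Igfbp1 RNA and moderately more Igf2r RNA than placebo livers. Of the 9 genes tested, 5 passed the test, 2 higher and 3 lower in tumour, against 34.8% of all genes. The animal means of the groups did not overlap in any of these 5. The share of all genes without overlap was not counted, here or in later comparisons. The median difference over the 9 genes was 0.14, and over all genes it was 0.01.

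**Figure D1:**
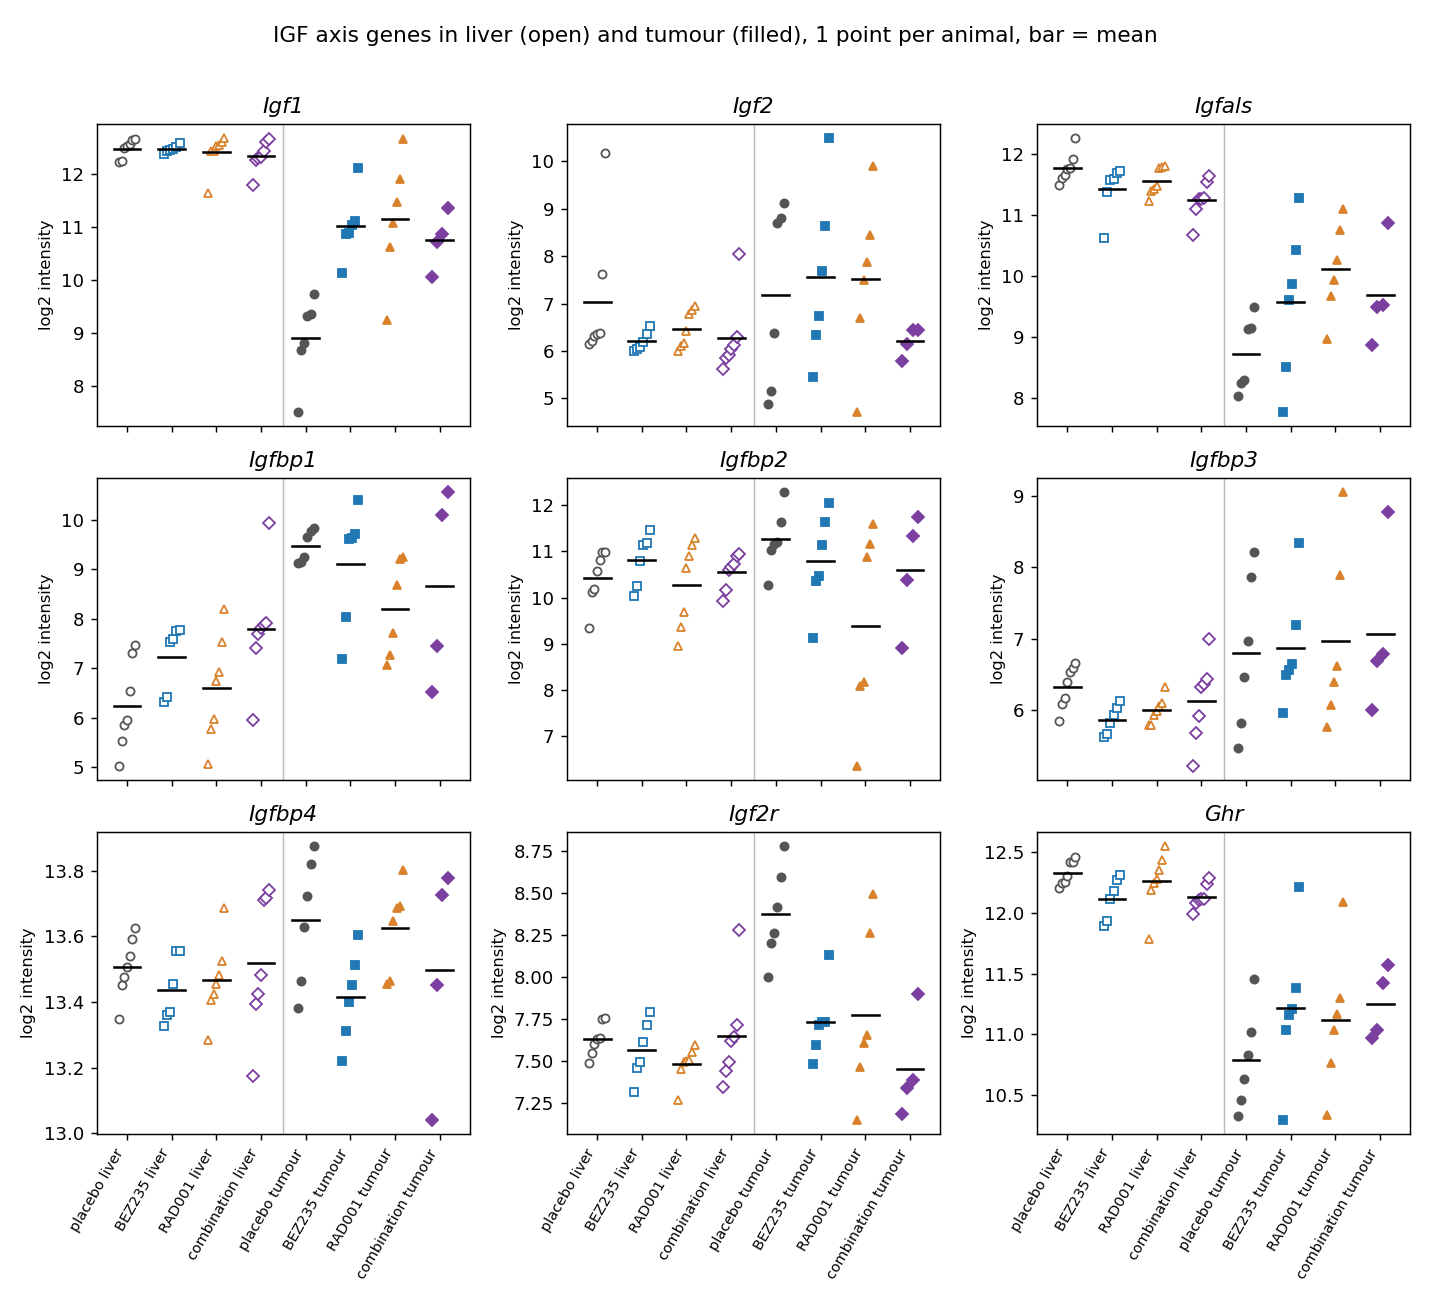
Log2 intensity (y axis) of the 9 measured IGF axis genes in the 8 groups (x axis), with 1 point per animal, open for liver and filled for tumour, and a bar at the group mean. The tumour means of all placebo animals sit below every placebo liver for Igf1, Igfals and Ghr and above every one for Igfbp1 and Igf2r, and Igf1 of treated tumours lies between placebo tumours and livers in most animals.

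Igf1 (chromosome 10, 87858265 to 87937047 in GRCm38.p6, the build of all positions here) was the member with the largest difference. In placebo livers its log2 intensity had a lowest, median and highest value of 12.23, 12.53 and 12.66, and in placebo tumours of 7.51, 9.06 and 9.73. Every placebo tumour was thus below every placebo liver, and the livers were close to each other. The means were 8.90 ± 0.78 (SD, n = 6) in tumour and 12.48 ± 0.18 (n = 7) in liver, a difference of -3.58 (SE 0.31, adjusted p = 3.34e-12), or 12.0-fold lower.

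Igf2, the fetal ligand that adult mouse liver hardly makes, did not show a shared direction. Placebo livers ranged from 6.14 to 10.17 with a median of 6.36, and placebo tumours from 4.89 to 9.13 with a median of 7.55. Tumours of 3 animals stood at 8.70 or above, and those of the other 3 at 6.39 or below, so 2 tumour means (4.89 and 5.16) lay below all placebo livers and the rest within the range of the livers. The difference was 0.13 (95% interval -1.22 to 1.48, adjusted p = 0.912). The interval leaves room for changes in either direction. The liver of animal 748, at 10.17, was the highest of the 27 livers, while its tumour stood at 4.89.

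Igfals (chromosome 17, 24877844 to 24882011) encodes the acid-labile subunit, which holds IGF and IGFBP3 in the large complex of serum. Its lowest, median and highest values were 11.49, 11.75 and 12.26 in placebo livers and 8.04, 8.71 and 9.48 in placebo tumours, with no overlap. It was lower in tumour by a log2 difference of -3.04 (SE 0.33, adjusted p = 6.52e-10), which is 8.22-fold, and in 6 of 6 tumour animals.

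Igfbp1 (chromosome 11, 7197787 to 7202546), the insulin-repressed binding protein that limits free IGF, went the other way. Placebo livers had values of 5.02, 5.52, 5.85, 5.94, 6.54, 7.31 and 7.47, and placebo tumours of 9.13, 9.14, 9.26, 9.65, 9.77 and 9.84. The tumours were close together and all above the livers, which were more spread. The difference was 3.24 (SE 0.55, adjusted p = 5.06e-06), or 9.44-fold higher in tumour.

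Promoter windows from 250 bases before to 50 after a start site were available from RefSeq (GRCm38.p6) for all 10 members, 17 windows in all. They were searched on both strands for the FOXO motif GTAAACA, the core of the insulin response element AAAACAA and the STAT5 motif TTCNNNGAA, which do not overlap each other in these windows. Of 32851 windows of all genes, 3.65% hold the first, 9.02% the second and 8.298% the third. Among the members matches were found in Igfbp1 and Igfals only. So few matches in 17 windows are near the shares of all genes, so they are not particular to the members. The windows of these genes are shown with the matches in capitals. The Igfbp1 window, chr11:7197537-7197836 on the plus strand, holds the insulin response core at -107 to -101 from the start. The Igfals window, chr17:24877981-24878280 on the plus strand, holds the FOXO motif on its minus strand at -242 to -236 and a STAT5 match at -58 to -50.
Igfbp1: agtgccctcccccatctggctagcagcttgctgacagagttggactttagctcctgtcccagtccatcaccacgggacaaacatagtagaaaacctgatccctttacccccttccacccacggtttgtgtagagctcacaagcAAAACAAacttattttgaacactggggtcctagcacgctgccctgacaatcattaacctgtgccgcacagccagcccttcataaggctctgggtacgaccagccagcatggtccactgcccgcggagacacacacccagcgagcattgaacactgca
Igfals: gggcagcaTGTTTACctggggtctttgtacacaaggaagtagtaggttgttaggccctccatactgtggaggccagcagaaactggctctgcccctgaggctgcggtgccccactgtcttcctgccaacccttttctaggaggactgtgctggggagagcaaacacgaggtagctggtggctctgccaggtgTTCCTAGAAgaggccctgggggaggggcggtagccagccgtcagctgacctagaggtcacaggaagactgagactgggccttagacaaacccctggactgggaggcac
A further Igfals window, chr17:24877594-24877893, holds a STAT5 match at -236 to -228. A match is a description of these letters and was not tested as a binding site. Igfbp1 and Igfbp3 are neighbours on chromosome 11, 3539 bases apart with 0 protein-coding genes between them. In placebo tumours Igfbp1 was called and Igfbp3 was not, with differences of 3.24 and 0.44 (this contrast between the genes was not tested).

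Igfbp2, Igfbp3 and Igfbp4 did not pass. Igfbp2, a binding protein common in fetal liver, had a difference of 0.86 (95% interval -0.21 to 1.92, adjusted p = 0.224), with a value of 0.44 for its second probe. Igfbp3, the main carrier of IGF in serum, had a difference of 0.44 (95% interval -0.35 to 1.24, adjusted p = 0.431). In this gene the tumours were more spread (SD 1.10, n = 6) than the livers (SD 0.30, n = 7). Igfbp4, which is known to restrain IGF until proteases cleave it, was one of the steadiest members, at 13.65 ± 0.20 (SD, n = 6) in tumour and 13.51 ± 0.09 (n = 7) in liver. Its 2 probes gave differences of 0.14 and -0.13, so no direction is given.

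Among the receptors, Ghr (chromosome 15, 3317755 to 3583352) stood at a lowest, median and highest value of 12.20, 12.30 and 12.47 in placebo livers and 10.33, 10.73 and 11.46 in placebo tumours. All tumours were below all livers. The difference was -1.54 (SE 0.19, adjusted p = 9.39e-09), and the second Ghr probe gave -2.67, so both probes were lower but by unequal amounts. Igf2r (chromosome 17, 12682406 to 12769706) ranged from 7.49 to 7.75 in placebo livers and from 8.00 to 8.78 in placebo tumours. It was higher in tumour by 0.76 (SE 0.15, adjusted p = 4.49e-05), with 0.84 for its second probe. The animal means did not overlap, although the lowest single placebo tumour, at 7.50, lay within the range of the livers.

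The same comparison within each treatment asked whether the pattern was present under the inhibitors. Igf1, Igfals and Ghr were lower in tumour under all 3 treatments, and Igfbp1 was higher under BEZ235 and RAD001. Under BEZ235, 4 of 9 members passed against 26% of all genes. Under RAD001, 4 of 9 passed against 28.5%, and under the combination 3 of 9 against 19.2%. Igf2r passed in none of the 3.

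**Figure D2:**
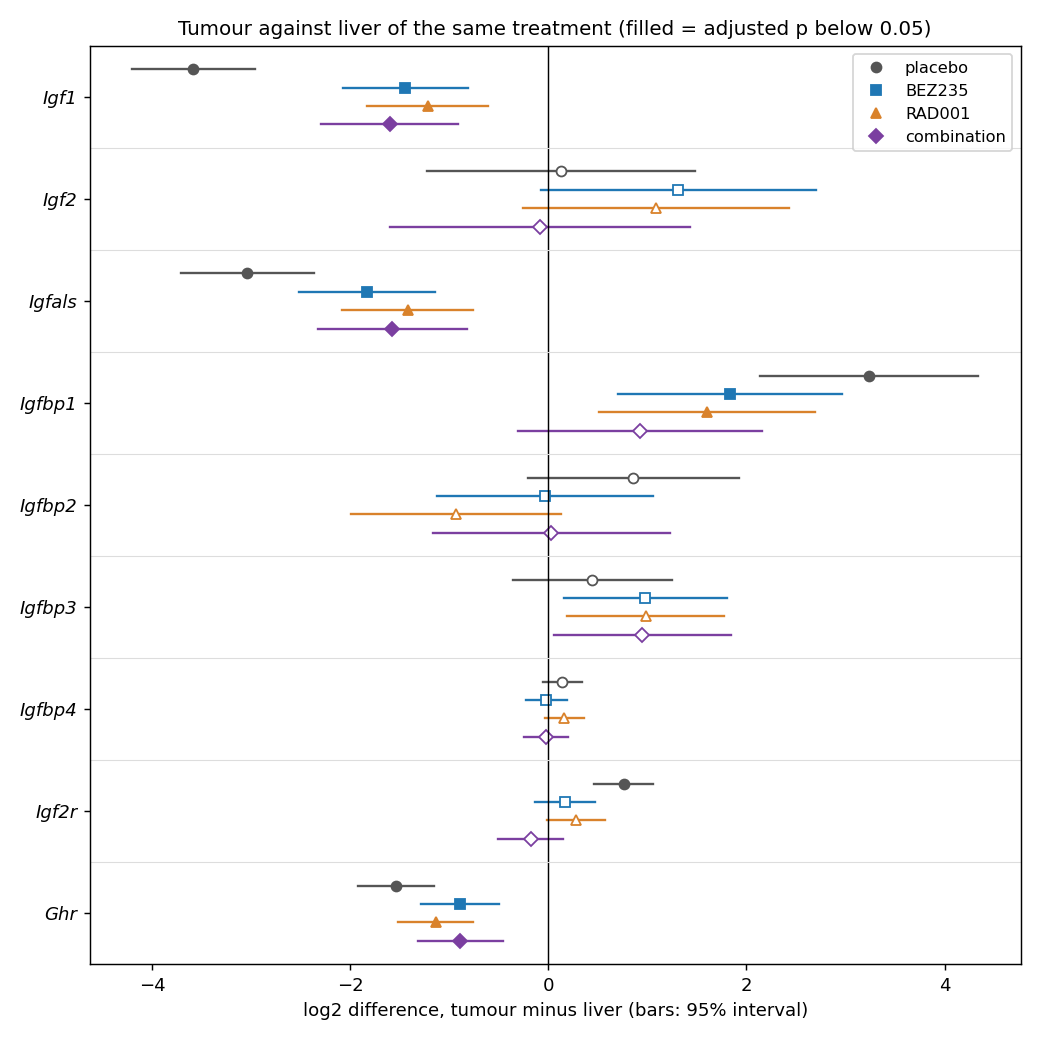
Log2 difference between tumour and liver (x axis, tumour minus liver) for each member (y axis) in placebo, BEZ235, RAD001 and combination animals, with 95% intervals and filled symbols where the adjusted p is below 0.05. Igf1 shows -3.58 in placebo and -1.22 to -1.60 under treatment, and Igf2r shows 0.76 in placebo and -0.18 to 0.28 under treatment.

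The differences between tumour and liver in treated animals were smaller than in placebo for the genes that passed. For Igf1 they were -1.44 (SE 0.31, adjusted p = 0.000462) under BEZ235, -1.22 (SE 0.30, adjusted p = 0.00168) under RAD001 and -1.60 (SE 0.34, adjusted p = 0.000615) under the combination. For Igfals they were -1.83, -1.42 and -1.58 in that order, and for Ghr -0.89, -1.14 and -0.89. All of these passed. Without the 6 animals the Igf1 differences were -1.71, -1.90 and -1.92 and those of Igfals -2.34, -1.91 and -2.02. Those of Ghr were then -1.06, -1.43 and -1.01, the RAD001 value being near the -1.54 of placebo. Whether each is smaller than in placebo was tested separately, as described below for the treatment effect in both tissues.

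Igfbp1 was higher in tumour by 1.83 under BEZ235 (SE 0.56, adjusted p = 0.0116) and by 1.60 under RAD001 (SE 0.54, adjusted p = 0.0216). Under the combination the difference was 0.92 (95% interval -0.31 to 2.15, adjusted p = 0.336). Without the 5 animals with liver-like tumours and animal 742 it was 2.05 (adjusted p = 0.00448). This p is no separate support, since those animals were picked by a score of tumour against liver. The BEZ235 and RAD001 differences without the same animals were 2.48 and 2.49. The combination tumours stood at 6.51, 7.46, 10.10 and 10.57, 2 of them above all combination livers and the other two below most. With the animal as a fixed block, which uses only mice with both tissues, the calls for Igfbp1 under BEZ235 (adjusted p = 0.094) and RAD001 (adjusted p = 0.052) and for Igf1 under RAD001 (-0.83, adjusted p = 0.0966) were lost. Under RAD001 the Igfbp1 call held in 4 of the 8 fits that left out 1 tumour or liver animal, with differences of 1.24 to 2.11, and was lost without animal 700, 727, 763 or 772.

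Igfbp3 had differences of 0.98 under BEZ235 (adjusted p = 0.0708), 0.98 under RAD001 (adjusted p = 0.0561) and 0.95 under the combination (adjusted p = 0.136), none past the limit. Without animals 693, 759, 732, 730, 773 and 742 the RAD001 value was 1.42 (adjusted p = 0.0217). The RAD001 value of Igf2r was then 0.54 (adjusted p = 0.00423). As these animals were picked by the liver-to-tumour score, these p-values are no separate support either. Taken tumour by tumour, 18 of 37 tumours exceeded the highest of the 27 livers in Igfbp3, and none was below the lowest.

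Animals that gave both tissues allow a direct look. Igfals was lower in tumour than in the same animal's liver in 18 of 18 mice, Ghr in 18 of 18 and Igf1 in 17 of 18. The exception for Igf1 was RAD001 animal 732, with 12.65 in tumour and 11.64 in liver, the lowest Igf1 of all livers. Igfbp1 was higher in tumour in 16 of 18 mice. Igfbp2 was higher in 9 and lower in 9. No treatment changed Igfbp2 differently in tumour and liver by the test described below. Those values were -0.89, -1.79 and -0.83 under BEZ235, RAD001 and the combination, none past the limit. Igfbp2 was higher in tumour in 4 of 4 placebo, 2 of 5 BEZ235, 1 of 5 RAD001 and 2 of 4 combination mice. No relation between the level in liver and in the tumour of the same mouse passed the adjusted limit once treatment means were removed. Over 9 such relations the highest correlation was that of Igfbp2 (n = 18, Pearson r = 0.511, permutation p = 0.0297, adjusted p = 0.190, Spearman rho = 0.519, permutation p = 0.0291, adjusted p = 0.262), and it was 0.516 without the 2 most extreme livers.

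The next comparison was between treated and placebo tumours. No member was called under any treatment, and no gene of the array was called either (0% of all genes under BEZ235, 0% under RAD001 and 0% under the combination, by limma). At an unadjusted p under 0.05, 2 of 9 members differed under BEZ235, 4 under RAD001 and 2 under the combination, where 558, 740 and 839 of all genes did. Igf1 was nevertheless among the genes with the lowest p of the whole array, at rank 3 of 10495 under BEZ235, rank 1 under RAD001 and rank 28 under the combination.

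**Figure D3:**
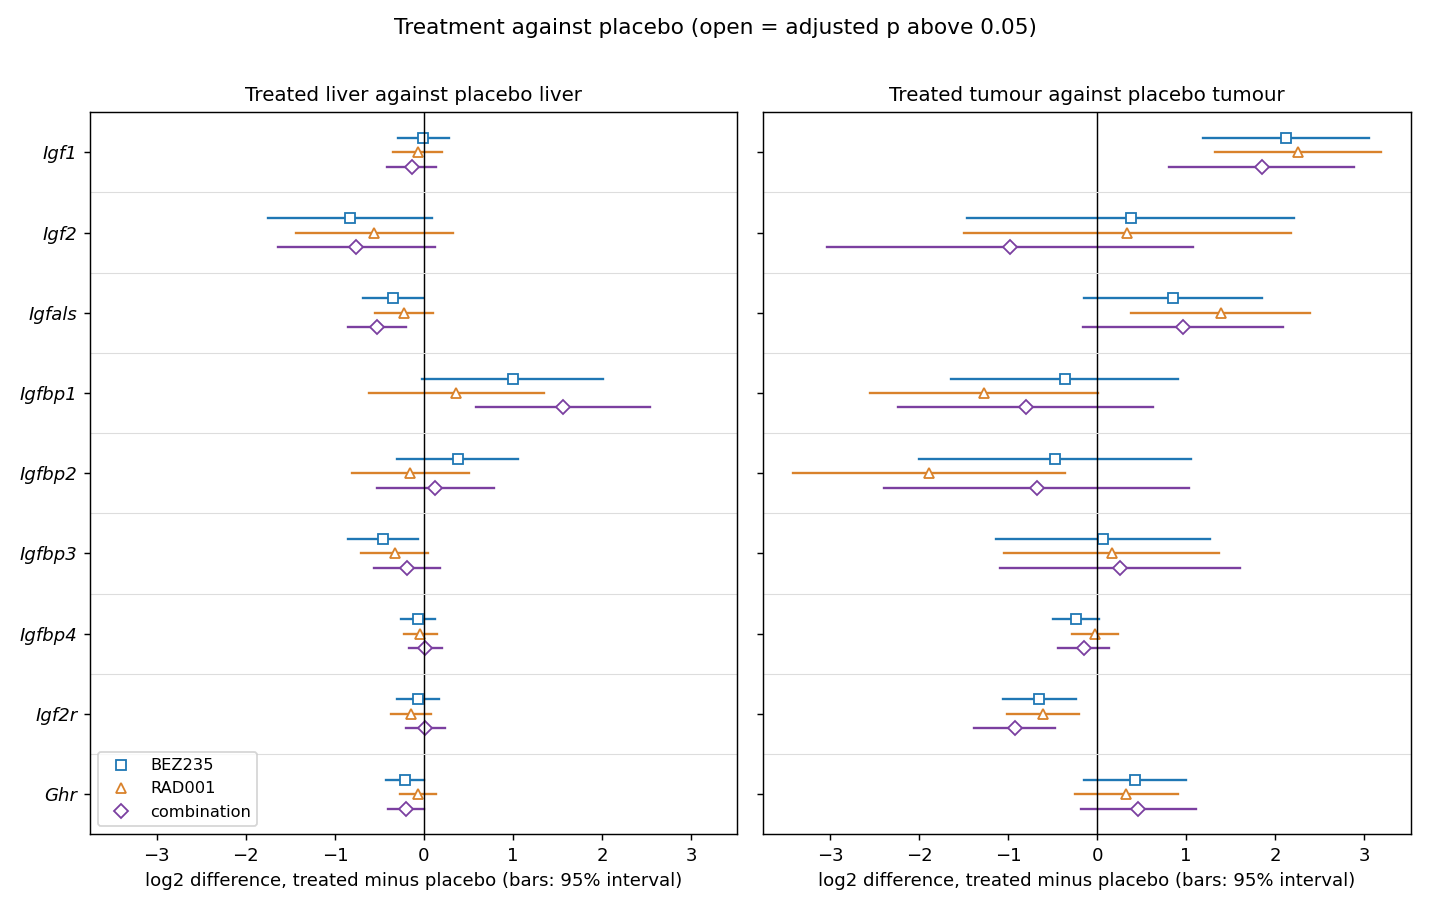
Log2 difference between treated and placebo animals (x axis, treated minus placebo) for each member (y axis), in liver on the left and tumour on the right, with 95% intervals; all symbols are open because no adjusted p is below 0.05. In tumour the Igf1 values are 1.85 to 2.26 and in liver they are -0.14 to -0.01.

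In BEZ235 tumours Igf1 stood at 10.12, 10.87, 10.89, 11.04, 11.12 and 12.11, all above the highest mean of a placebo animal, 9.73. Single tumours overlapped, with 9.36 as the lowest BEZ235 tumour and 10.60 as the highest placebo tumour. In RAD001 tumours it stood at 9.25, 10.62, 11.07, 11.47, 11.91 and 12.65, so 1 of the 6 overlapped placebo. In combination tumours it stood at 10.06, 10.71, 10.86 and 11.36, with no overlap with the placebo animals, although the lowest single tumour was 9.64. The differences were 2.13 (SE 0.45, adjusted p = 0.356), 2.26 (SE 0.45, adjusted p = 0.327) and 1.85 (SE 0.50, adjusted p = 0.455).

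These 3 comparisons share the placebo tumours, and their size depended on single animals and on the fit. Without animals 693, 759, 732, 730, 773 and 742 the Igf1 differences were 1.89, 1.70 and 1.64. With 1 tumour per animal they were 1.56, 1.39 and 0.69. With all 8 groups in the fit, which also draws on the narrow spread of the livers, all 3 passed, with adjusted p of 0.000592, 0.000138 and 0.011. Without RAD001 animal 727, whose tumour stood at 9.25, the RAD001 difference was 2.64 (adjusted p = 0.00961).

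Igf2r showed the reverse order, with values of 7.49 to 8.13 in BEZ235 tumours, 7.15 to 8.49 in RAD001 tumours and 7.18, 7.34, 7.39 and 7.90 in combination tumours. The combination animals did not overlap the placebo animals, although the lowest single placebo tumour, at 7.50, was below the highest combination tumour. The differences from placebo tumour were -0.65 (adjusted p = 0.824), -0.61 (adjusted p = 0.630) and -0.93 (SE 0.22, adjusted p = 0.455), and the second probe gave -0.53, -0.69 and -1.02. With all 8 groups in the fit the combination value passed (-0.91, adjusted p = 0.00754).

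The other members of treated tumours had wide intervals. Igfals differed by 0.85 under BEZ235, 1.39 under RAD001 and 0.97 under the combination, all higher than placebo but none past the limit. Igfbp1 differed by -0.37, -1.27 and -0.80, and Igfbp2 by -0.47, -1.89 and -0.68. Without the 6 animals Igfals differed by 0.21, 0.99 and 0.57, Igfbp1 by 0.38, -0.76 and -0.09, with the BEZ235 sign turned, and Igfbp2 by -0.14, -1.51 and -0.12. The RAD001 value of Igfbp2 came from tumours that ran from 6.35 in animal 732 to 11.60 in animal 700, while all placebo tumours lay between 10.28 and 12.29. Ghr differed by 0.43, 0.33 and 0.46, and its second probe by 0.63, 0.82 and 0.95, while without the 6 animals the first probe gave 0.22, 0.07 and 0.35. Igf2 ranged from 5.45 to 10.50 in BEZ235 tumours, from 4.71 to 9.90 in RAD001 tumours and only from 5.78 to 6.44 in the 4 combination tumours. None of the members differed between 2 treatments in tumour (0.00953% of all genes were called between BEZ235 and RAD001, 0.0191% between the combination and RAD001, and 0% between the combination and BEZ235). For Igf1 those differences were -0.13 (95% interval -1.06 to 0.80), -0.41 (-1.45 to 0.63) and -0.28 (-1.32 to 0.76).

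**Figure D4:**
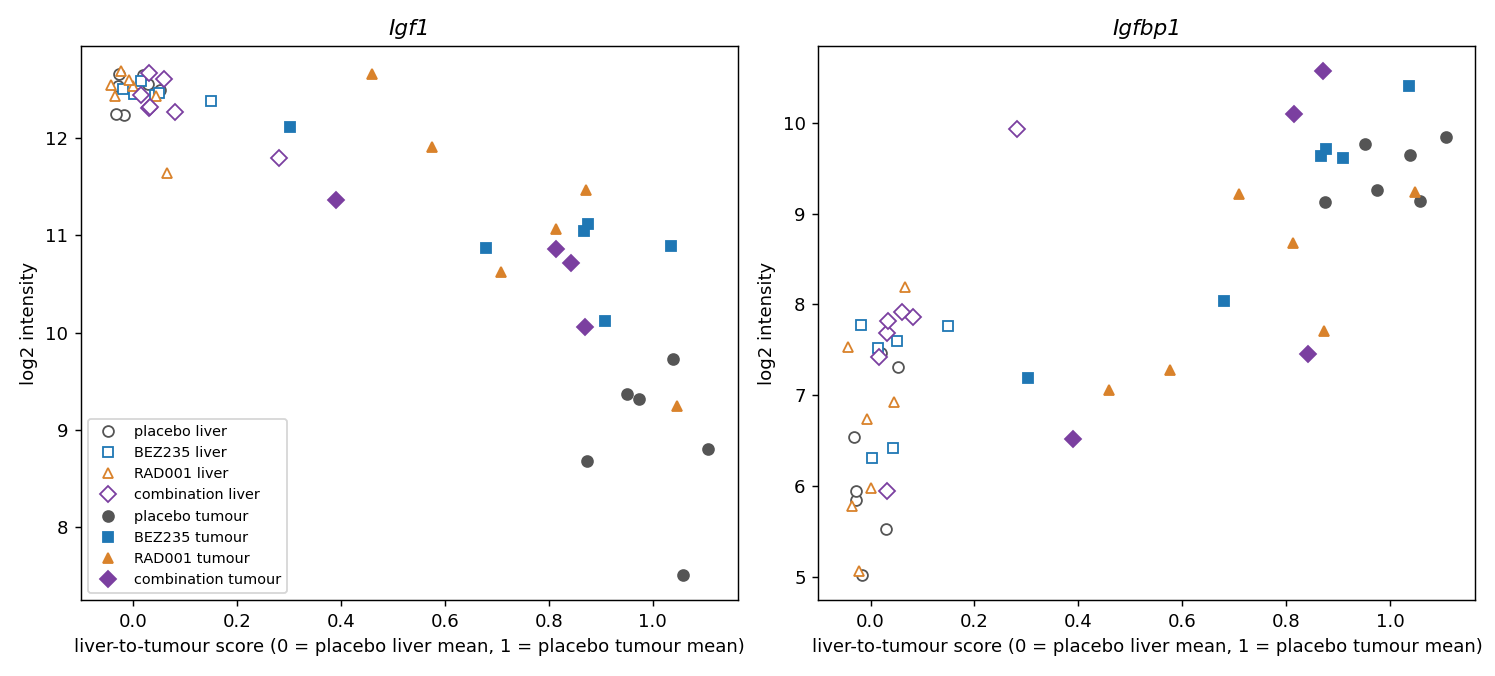
Log2 intensity of Igf1 (left) and Igfbp1 (right) on the y axis against the liver-to-tumour score of the same sample on the x axis, 1 point per animal and tissue, open for liver and filled for tumour. The tumours with scores of 0.302 to 0.575 hold Igf1 between 11.36 and 12.65 and Igfbp1 between 6.51 and 7.28, while the tumour means of the 6 placebo animals hold Igf1 at 9.73 or below.

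In each treatment, the tumour with the lowest score had the highest Igf1 and Igfals and the lowest Igfbp1 of its group. BEZ235 tumour 693, with a score of 0.302, had the highest Igf1 (12.11), Igfals (11.27) and Ghr (12.21) and the lowest Igfbp1 (7.18) of its group. RAD001 tumour 732, with 0.460, had the highest Igf1 (12.65) and Igfals (11.10) and the lowest Igfbp1 (7.06) and Igfbp2 (6.35). Combination tumour 773, with 0.390, likewise had the highest Igf1 (11.36) and Igfals (10.87) and the lowest Igfbp1 (6.51). RAD001 tumour 727, with 1.05, had the lowest Igf1 (9.25) and Igfals (8.97) of its group and the highest Igfbp1 (9.24). The order did not hold throughout, since BEZ235 tumour 759, with the second lowest score of its group, 0.679, had an Igf1 of 10.87, and RAD001 tumour 772 (0.872) had a higher Igf1 than tumour 763 (0.708), 11.47 against 10.62. BEZ235 tumours 697, 755, 712 and 728 scored 0.867 to 1.04, within or near the placebo range, and their Igf1 was 10.12 to 11.12, above the mean of every placebo animal. The share of liver tissue in a tumour sample was not measured, and its part in these values was not tested.

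Across the 22 tumour means, 5 of the 36 pairs of members had a correlation over 0.6 in size and 19 had one under 0.3, among them the pairs of Igf2 with Igf1, Igfals, Igfbp1 and Igf2r. Among the former, the correlation of Igfals with Igfbp1 was -0.80, that of Igf1 with Igfals 0.76, that of Igf1 with Igf2r -0.72 and that of Ghr with Igfbp1 -0.63. With group means removed they were -0.77, 0.69, -0.51 and -0.65. Without the 5 animals with liver-like tumours, over 17 means, they were -0.52, 0.57, -0.67 and -0.38. These are descriptions over samples that share treatment groups and the position between liver and tumour. In the 27 livers the 4 pairs had -0.46, 0.34, -0.43 and -0.44, and -0.23, 0.30, -0.47 and -0.25 with group means removed.

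Livers of treated animals were then compared with placebo livers. No member was called by limma, while the share of all genes called was 0.0286% under BEZ235, 0% under RAD001 and 0.276% under the combination. At an unadjusted p under 0.05, 3 members differed under BEZ235, 0 under RAD001 and 2 under the combination, where 541, 674 and 886 of the 10495 genes did. Igf1 stayed within a narrow band, with group means of 12.48 ± 0.18 (SD, n = 7) for placebo, 12.47 ± 0.07 (n = 6) for BEZ235, 12.41 ± 0.35 (n = 7) for RAD001 and 12.34 ± 0.29 (n = 7) for the combination. Neighbours in this order did not differ beyond their spread, and the largest difference from placebo was -0.14 (95% interval -0.41 to 0.14).

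Igfbp1 had the largest difference of the members in BEZ235 and combination livers. BEZ235 livers stood at 6.31, 6.42, 7.53, 7.60, 7.76 and 7.78, and combination livers at 5.95, 7.42, 7.68, 7.82, 7.86, 7.92 and 9.93, against 5.02 to 7.47 in placebo livers. The combination group overlapped placebo through animals 713 and 775, and its highest value was that of animal 742. The differences were 1.00 for BEZ235 (adjusted p = 0.942), 0.36 for RAD001 (adjusted p = 0.949) and 1.56 for the combination (SE 0.48, unadjusted p = 0.00288, adjusted p = 0.211). Leaving out 1 animal at a time gave 1.21 to 1.87 for the combination, and leaving out the 6 animals with a liver-like tumour or tumour-like liver gave 1.13. The combination livers differed from RAD001 livers by 1.20 (adjusted p = 0.387, where 0.877% of all genes were called) and from BEZ235 livers by 0.57 (adjusted p = 0.999, where 0% were called). BEZ235 and RAD001 livers differed by 0.63 (adjusted p = 0.833, where 0.152% were called).

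Igfals was lower in all 7 combination livers than the placebo mean, with a difference of -0.53 (SE 0.16, unadjusted p = 0.00246, adjusted p = 0.201), against -0.35 for BEZ235 and -0.22 for RAD001. Ghr likewise was below the placebo mean in 7 of 7 combination livers, with a difference of -0.20 (adjusted p = 0.603), against -0.21 for BEZ235 and -0.07 for RAD001. All BEZ235 livers were also below the placebo means of both genes. Their highest values were 11.71 against a mean of 11.77 for Igfals and 12.31 against 12.33 for Ghr. Igf2 had differences of -0.83, -0.56 and -0.76, which ran from -0.98 to -0.31, -0.71 to -0.03 and -1.06 to -0.24 when 1 animal was left out. Its medians were 6.36 in placebo and 6.14, 6.42 and 6.05 under BEZ235, RAD001 and the combination. Igfbp2, Igfbp3, Igfbp4 and Igf2r differed from placebo by at most 0.46 on the log2 scale in any treatment.

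Whether a treatment changed a gene differently in tumour and in liver was tested with an interaction term. For Igf1 under RAD001 this difference of effects was 2.37 (SE 0.43, adjusted p = 0.0184), at rank 1 by p, and it was 1 of 2 genes called among all tested (0.0191%). For Igf1 it was 2.14 under BEZ235 (adjusted p = 0.0641, with 0% of genes called) and 1.98 under the combination (adjusted p = 0.130, with 0.00953% called). Without the 6 animals with a liver-like tumour or tumour-like liver these 2 values were 1.88 and 1.67. Among the probes that stand for a gene, that of Igf1 under RAD001 was the only member called in an interaction. The second Igf2r probe was called as well, under the combination (-1.25, SE 0.22, adjusted p = 0.00679 over all probes). The SE of 0.43 for Igf1 comes from a fit that pools the narrow spread of livers with the wider one of tumours, and the tumour effect of RAD001 alone had an SE of 0.45. The Igf1 call was lost without the 4 animals 693, 759, 732 and 730 (1.68, adjusted p = 0.706), with 1 tumour per animal (1.50, adjusted p = 0.803) and in 4 of the 17 fits that left out 1 animal, which were those without animal 710, 730, 732 or 771. The first Igf2r probe gave -0.94 under the combination (SE 0.22, adjusted p = 0.130) and -0.95 without the 6 animals named above. Igfals gave 1.62 under RAD001 (SE 0.47, adjusted p = 0.504) and 1.46 under the combination (adjusted p = 0.432), and without those animals 1.13 and 1.02. Igfbp1 gave -2.32 under the combination (SE 0.82, adjusted p = 0.432), and without those animals -1.19 (adjusted p = 0.888). Under BEZ235 and RAD001 Igfbp1 gave -1.41 and -1.64, and without those animals -0.76 and -0.75. Ghr gave 0.65, 0.40 and 0.65 under BEZ235, RAD001 and the combination, and without those animals 0.48, 0.11 and 0.53. At an unadjusted p under 0.05, 4 members differed under BEZ235, 5 under RAD001 and 5 under the combination, where 562, 787 and 886 of the 10495 genes did.

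Separate tumours of an animal differed widely. In the 12 mice with several tumours, 27 tumours in all, the SD of Igf1 within an animal was 1.28. The SD between the animals of a treatment was 0.84. This second SD is over animal means, which averaging of tumours narrows, so the SDs are not directly comparable. In placebo animal 710 the tumours stood at 10.48 and 6.88, in placebo animal 769 at 10.47 and 7.14, and in placebo animal 747 at 10.60, 8.14 and 9.36. Each of these animals thus held a tumour within the range of the treated animal means and a tumour below it. Over all 37 tumours, 30 were below the lowest of the 27 livers in Igf1, 31 in Igfals and 35 in Ghr.

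**Figure D5:**
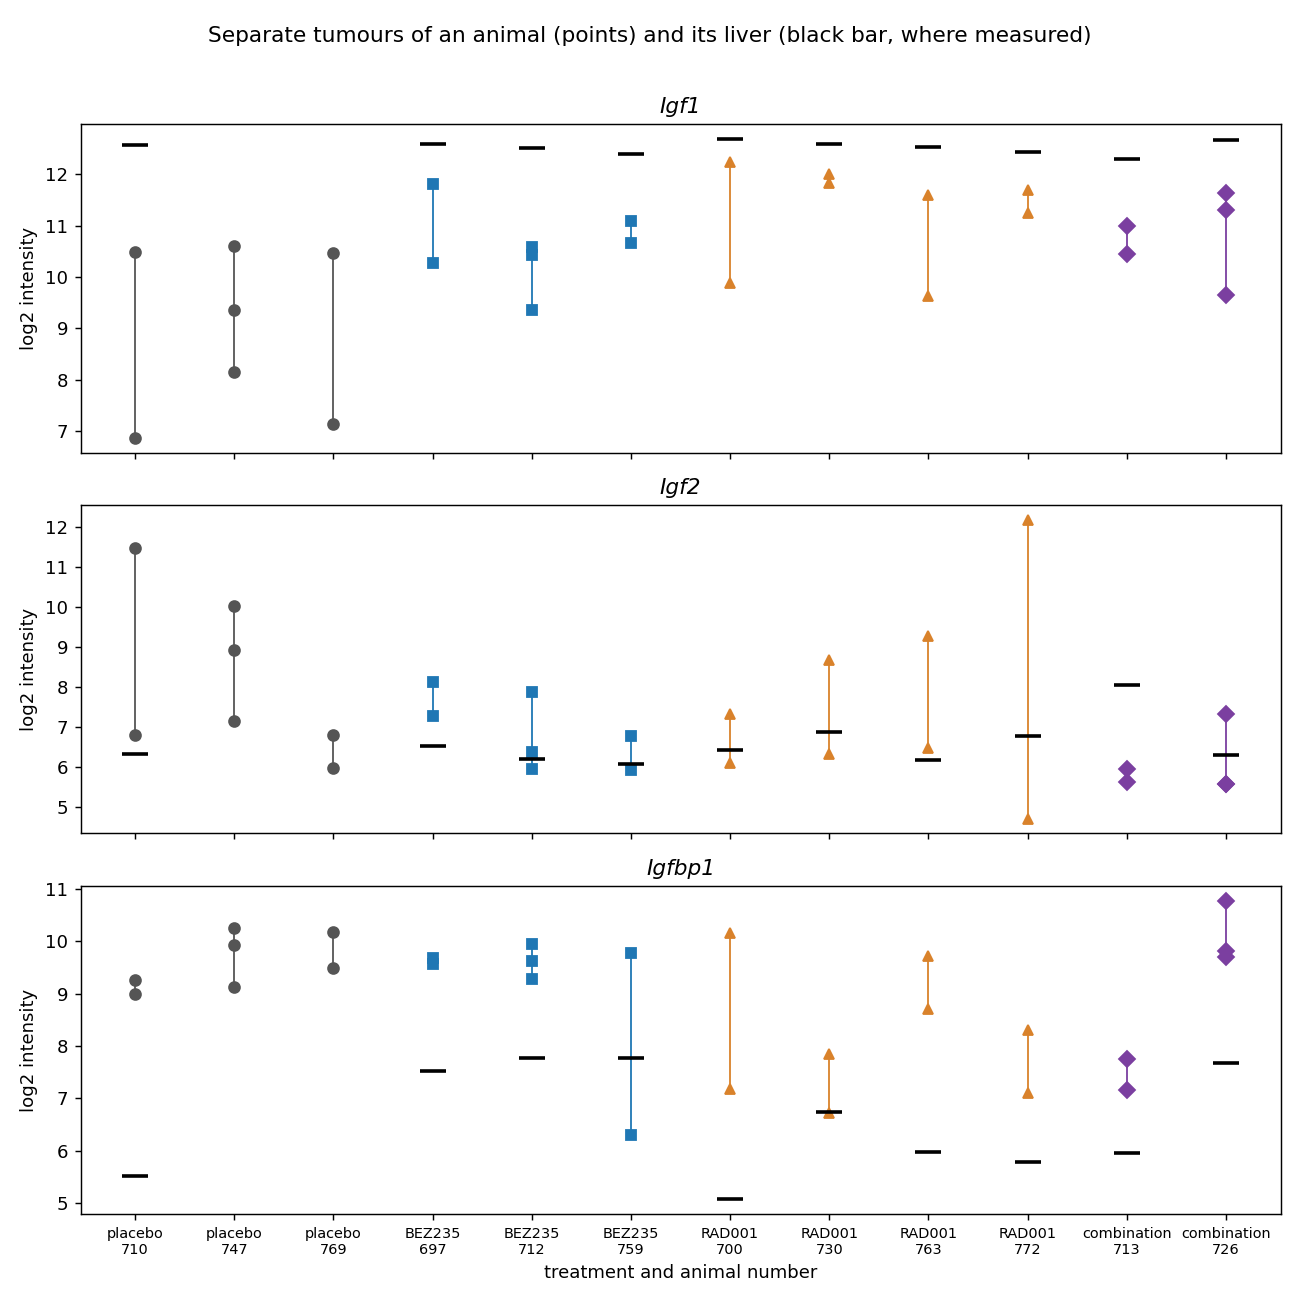
Log2 intensity (y axis) of Igf1, Igf2 and Igfbp1 in each tumour of the 12 animals with several tumours (x axis, treatment and animal number), with lines joining the tumours of an animal and a black bar for its liver where measured. The widest gap is that of Igf2 in RAD001 animal 772, from 4.70 to 12.19, and Igf1 of placebo animal 710 spans 6.88 to 10.48.

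Igf2 varied most. Its within-animal SD was 1.93 and its largest range 7.49, in RAD001 animal 772, whose tumours stood at 12.19 and 4.70. The first of these was the highest Igf2 of all arrays, and it also had the highest Igfbp3 of all tumours, 10.22 against 5.56 in the other. Placebo animal 710 had Igf2 at 11.47 in the tumour with the low Igf1 and at 6.79 in the other. In Igf2, 3 of 37 tumours exceeded the highest liver, that of animal 748, 11 exceeded the next liver, at 8.06, and 7 were below the lowest. Igfbp1 had a median range of 1.05 within an animal and spanned 9.77 to 6.31 in BEZ235 animal 759 and 10.17 to 7.18 in RAD001 animal 700. Igfbp4 and Igf2r were the most even, with a within-animal SD of 0.29 and 0.44.

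The genes upstream and downstream of these members were read from lists. Growth hormone acts on male mouse liver in pulses, and 6 of 7 genes that depend on these pulses were lower in placebo tumours, against 34.8% of all genes called in either direction, with a list median of -4.07. The largest falls were in Cyp4a12a (-5.41, adjusted p = 4.57e-07), a fatty acid hydroxylase, Hsd3b5 (-4.83), a steroid reductase, and Elovl3 (-4.48), a fatty acid elongase. Under BEZ235 and RAD001 6 of 7 were lower in tumour than in liver, and under the combination 5 of 7. Against placebo tumours 0 of 7 passed under any treatment. Of 6 tested genes of growth hormone receptor signalling, 0 passed between placebo tumour and liver. Among them the feedback inhibitor Socs2 stood at 6.64 ± 0.94 (SD, n = 6) in placebo tumour and 7.48 ± 0.84 (n = 7) in liver, a difference of -0.85 (adjusted p = 0.177), and Stat5a differed by -0.38 (adjusted p = 0.0732). Stat5b was not above noise.

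In the insulin and IGF receptor signalling list, 2 of 9 tested genes were higher and 2 lower in placebo tumours, where 34.8% of all genes were called in either direction. Grb10, an adaptor that dampens insulin and IGF1 receptor signalling, was higher by 1.66 (SE 0.22), and Shc1, an adaptor toward the MAP kinase pathway, by 0.87. Grb14, another inhibitory adaptor, was lower by -0.83 and Pik3r1, the regulatory subunit of PI3K, by -0.70. Grb10 and Shc1 were also higher in tumour under each of the 3 treatments, Grb10 by 0.97 under BEZ235, 1.74 under RAD001 and 1.67 under the combination. Insr and Akt1 were not above noise.

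Other IGF-binding proteins behaved differently from each other. Igfbp6, which prefers IGF2, was higher in placebo tumour by 1.24 (adjusted p = 0.000641), and Igfbp5 differed by -1.07 (adjusted p = 0.00202) and was lower. Of the IGF2 mRNA-binding proteins only Igf2bp3 was tested, with 0.53 in placebo (adjusted p = 0.0986), and it was higher in tumour under BEZ235 (0.82, adjusted p = 0.0135). None of 2 tested IGFBP proteases and their inhibitors passed in placebo, and the protease Htra1 was higher in tumour under RAD001 (1.09, adjusted p = 0.0137). Of 4 genes of mannose 6-phosphate sorting, the pathway of the Igf2r product, 0 were higher and 1 lower, Gnptg (-0.33), a subunit of the enzyme that makes the tag.

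Igfbp1 is a target of both FOXO1 and ATF4, and both lists were read beside it. In placebo tumours, where 34.8% of all genes were called, 5 of 6 ATF4 stress genes were higher, with a list median of 1.92, led by Fgf21 (3.49), a stress hormone of liver, Ddit3 (2.33) and Atf3 (2.15). Of 9 insulin-repressed FOXO targets 1 was higher, Depp1 (1.38), and 3 were lower, Pck1 (-2.33), the gluconeogenic enzyme, Klf15 (-1.17) and Ppargc1a (-0.82). In livers the FOXO list held 2 genes that were higher under the combination, Depp1 (2.15, adjusted p = 0.000472) and Irs2 (1.18, adjusted p = 0.0125), the adaptor of the insulin receptor, and 1 that was higher under BEZ235, Depp1 (1.94, adjusted p = 0.00893). For RAD001 livers 0 of 9 passed, where Depp1 differed by -0.68 and Irs2 by 0.76. In tumours Depp1 was higher under the combination (2.14, adjusted p = 0.0348) and BEZ235 (1.96, adjusted p = 0.0491) than under RAD001, where Igfbp1 differed by 0.47 and 0.90 and did not pass. No ATF4 gene passed in treated livers. Between tumour and liver 6, 6 and 5 of 6 ATF4 genes were higher under BEZ235, RAD001 and the combination. The list medians were 1.60, 2.17 and 1.79, where 26%, 28.5% and 19.2% of all genes were called. Of the 9 FOXO targets 1, 2 and 1 were higher and 2, 1 and 2 lower. The part of either factor in the Igfbp1 level was not tested.

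Over all animals, the genes whose levels followed the members most closely were looked up over all genes tested. Over the 22 tumour means Igf1 was most like Hacl1 (r = 0.86), Fam214a (0.84) and Gnmt (0.84), and with group means removed these were 0.79, 0.79 and 0.76. Igfals was most like Plin5 (0.93), Cxcl12 (0.86) and Gas2 (0.85), Ghr like Upp2 (0.89), Ces3b (0.85) and Asb13 (0.83), Igfbp1 like Rabgap1 (0.88), Cdkn2b (0.88) and Acbd3 (0.87), and Igfbp2 like Nrn1 (0.87), Abcd2 (0.85) and Gpr182 (0.83). Over the 27 livers Igfbp1 was most like Rictor (0.81), Pdk4 (0.75), which is also in the FOXO list, and H6pd (0.74), and Igf1 like Cbx5 (0.84), Zap70 (0.80) and Ppm1k (0.78). Over the livers Igfals was most like Pcyt1a (0.70), Siva1 (0.67) and Pcid2 (0.67), Ghr like Pcmtd1 (0.80), Abat (0.74) and Hao1 (0.73), and Igfbp2 like H13 (0.69), Cyp3a11 (0.66) and Zfp280d (0.63).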

How the data were processed

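RNA of 27 livers and 37 tumours was hybridised to Illumina mouse arrays. The authors deposited linear, background-subtracted probe intensities made with BeadStudio, per the submitters' processing notes; neither its version nor the chip of a sample is given in the sources used here. Arrays of 1 treatment held identical sorted values at the bright end (range 0 on the log2 scale, 0.117 over all arrays), so the deposited intensities were already quantile-normalized per treatment. A second table of 128 value columns has headings that match no label and was not used; the normalization with negative control probes that had been planned was therefore replaced.

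The 64 arrays were quantile-normalized together, corrected with normexp (background mean 0, noise SD 7.02 from mirrored negative values, offset 16) and taken to log2. Probes above 2 noise SDs (14.0) on at least 6 arrays were kept, 15244 of 25697. Symbols were updated through Entrez numbers, which matched for 23962 of the 23978 probes with 1 symbol; 1719 had none. A gene was represented by its probe of highest mean, and every probe of a member is reported.

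Tumours of an animal were averaged. The number in a sample's name is the mouse, so liver and tumour of a number are paired. Tumour against liver, and the difference of effects, were fitted over all 8 groups, the animal being a random block (within-animal correlation 0.0968). Treatments were compared within the 4 liver or the 4 tumour groups. Tests were two-sided limma moderated tests (R 4.3.3, limma 3.58.1), adjusted over 10495 genes. The fit was checked on simulated data drawn with the spread of livers and no correlation within an animal. The wider spread of tumours and the animal block were therefore not covered by this check. Relations between liver and tumour used 100000 resamples (scipy 1.17.1).

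The members, gene lists and tests were chosen with earlier results of these data known. Named list genes are those past the limit, up to 3 per direction, plus members of the growth hormone and FOXO lists named after their values were seen. For 5 members the 3 most correlated genes are named in each tissue. Alternatives covered offset, background, filter, probe choice, tumours per animal, groups in the fit, the block and single animals. p-values measure the spread between the animals.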

Additional observations from a re-analysis of the deposited data

Results flagged for a closer look

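Among 72 groups of a gene in a tissue and treatment, 5 held an animal far from the others by Dixon's criterion, where chance alone gives about 1 in 20. The Igf1 level of RAD001 liver 732 was 11.64, while the other RAD001 livers lay between 12.43 and 12.69. This is the animal whose tumour had a liver-to-tumour score of 0.460. The Igf2 level of placebo liver 748 was 10.17 and that of combination liver 713 was 8.06, against at most 7.62 and 6.29 in the other livers of their groups. The Igfals level of BEZ235 liver 725 was 10.62, below the 11.37 of the next. The Igf2r level of combination liver 742 was 8.28, against at most 7.71 in the others, and that liver had the highest Igfbp1 of all livers and a score of 0.281.

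The effect of RAD001 on Igf1 differed between tumour and liver by the interaction test, with a log2 difference of effects of 2.37 (limma, adjusted p = 0.0184). The adjusted p ranged from 4.53e-05 to 0.803 over 28 alternatives, of which 19 kept the call.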

How the results depend on the processing

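The 5 calls between placebo tumour and liver held in all 20 alternatives, and Igf1, Igfals and Ghr held under BEZ235 and the combination in all 18. No called difference changed sign. With all 8 groups in the fit, 1 member passed against placebo tumour under BEZ235 (Igf1), 1 under RAD001 (Igf1) and 2 under the combination (Igf1 and Igf2r), in place of 0. Leaving out 1 animal gave 0 to 1 under RAD001, with 1 without animal 727. For the BEZ235 difference of effects 1 member passed with the filter on 48 of 64 arrays (Igf1), chosen after seeing the data, and 0 to 1 with 1 animal left out (1 without animal 712 or 748). For RAD001 the count was 0 with no filter, with 1 tumour per animal, with every tumour as its own array, without the 4 animals with liver-like tumours and without the 5 such animals and animal 742 (chosen after seeing the data), and 0 to 1 with 1 animal left out. For the combination it was 1 with the mean over probes (Igf2r) and 1 without the 4 animals (Igf1). With the animal as a fixed replicate block (4, 5, 5 and 4 mice) the calls lost were Igfbp1 under BEZ235 (1.44, adjusted p = 0.094) and RAD001 (1.64, adjusted p = 0.052) and Igf1 under RAD001 (-0.83, adjusted p = 0.0966), and Igfbp3 under RAD001 was gained (1.16, adjusted p = 0.0366). Of 142 member differences never past the limit, 54 changed sign in at least 1 alternative. The causes were not tested. Signal near the noise limits Igf1r and dim probes such as Igf2, and chip batches could not be examined.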
